A study of Ovis aries with 6 samples.

Results

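Class I antigen processing was followed through 10 genes: the inducible proteasome subunits PSMB8, PSMB9 and PSMB10, the proteasome activator subunits PSME1 and PSME2, the peptide transporter subunits TAP1 and TAP2, the loading factor TAPBP, the class I light chain B2M and the regulator NLRC5. They were taken by gene symbol from a table of 18865 genes, where all 10 were found. Counts were present for 9 of them, and these 9 passed the filter on low counts. Cultured sheep mitral valve endothelial cells (VECs), which line the mitral leaflets, were kept for 24 h with plasma of sheep that had undergone myocardial infarction (called post-MI here, 3 libraries) or with naive sheep plasma (3 libraries). The labels name neither plasma donors nor cell donors, the time after infarction or the plasma dose, so the p-values reflect library-to-library spread that may be technical in origin.

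As background, nucleated cells show fragments of their own proteins to CD8 T cells on class I molecules. The proteasome cuts the proteins, the TAP transporter carries the peptides into the endoplasmic reticulum, and tapasin helps to load them onto a heavy chain paired with beta-2-microglobulin. Interferons raise much of this pathway, in part through IRF1 and NLRC5, and exchange the constitutive catalytic proteasome subunits for inducible ones. Endothelial cells carry class I on their surface and are exposed to circulating T cells.

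Libraries held 14858472 to 20672794 counts, and levels are given as CPM, the count scaled to the effective library size after TMM scaling. In bulk RNA a change in the share of cells that express a gene and a change in RNA per cell cannot be told apart. All 12 endothelial markers were detected, but their levels differed widely, from PECAM1 at 889 to 1407 CPM to CLDN5 at 0.20 to 20.2 CPM. Fibroblast markers also differed widely, with COL1A1 at 3172 to 9781 CPM and DCN at 5.71 to 55.8 CPM. Leukocyte markers, which matter here because leukocytes are rich in these genes, summed to 50.2 to 73.9 CPM with post-MI and 61.3 to 77.1 CPM with naive plasma over 15 rows. The B and T cell genes CD2, CD3D, CD3E, CD79A, CD79B and MS4A1 had 0 to 7 counts per library, and PTPRC (CD45) lay at 0.64 to 1.33 CPM with post-MI and 0.14 to 0.35 CPM with naive plasma. A pair of libraries stood apart. Naive replicate 1 held the highest CPM of 28.8% of genes tested. Post-MI replicate 3 had a summed CPM of 3821 over 26 type I interferon-stimulated genes, against 489 and 502 in post-MI replicates 1 and 2 and 352, 664 and 497 in naive replicates 1, 2 and 3.

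All 9 counted class I genes had their highest level in the same library, post-MI replicate 3, while post-MI replicates 1 and 2 together averaged 0.858-fold (PSME2) to 1.38-fold (PSMB10) of the naive mean in all but NLRC5. For comparison, post-MI replicate 3 held the highest CPM of 13.3% of all genes tested. On the log2 scale it stood above the mean of the other 5 libraries by 0.42 (B2M) to 1.54 (PSMB9), with a median of 1.0 over the 9 genes and 0.01 over all 14326 genes tested. A single library gives no replicate check, so this is a description with no test. In that library leukocyte markers summed to 73.9 CPM, inside the range of the naive libraries, with CD14 at 32.4 CPM and LCP1 at 30.4 CPM making up most of the sum. But 2 of the 6 tested leukocyte markers were highest there. They were PTPRC (1.33 CPM, 1.59 above the other libraries on the log2 scale) and LCP1, an actin-bundling protein (10.2 to 24.2 CPM in the other 5 libraries). PTPRC had 23 counts there and 3 to 12 counts in the other libraries. On the same scale LCP1 stood 0.89 and CD14 0.16 above the other libraries, while CD68, CORO1A and NKG7 stood at -0.55, -0.41 and -0.19. The median of the 6 markers was -0.01 in post-MI replicate 3. The summed level there was, for smooth muscle and pericyte markers, 6186 CPM (4534 to 5681 CPM in the other post-MI and 896 to 4993 CPM in the naive libraries) and, for endothelial markers, 3217 CPM (4189 to 4573 CPM in the other post-MI and 3111 to 3443 CPM in the naive libraries). Of the smooth muscle and pericyte sum in that library, ACTA2 alone made up 5330 CPM. The part of these marker differences in the result was not tested. No difference between the groups in these genes passed the test over all libraries. edgeR's quasi-likelihood test called 0 of the 9, where it called 0% of all genes higher and 0% lower.

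**Figure D1:**
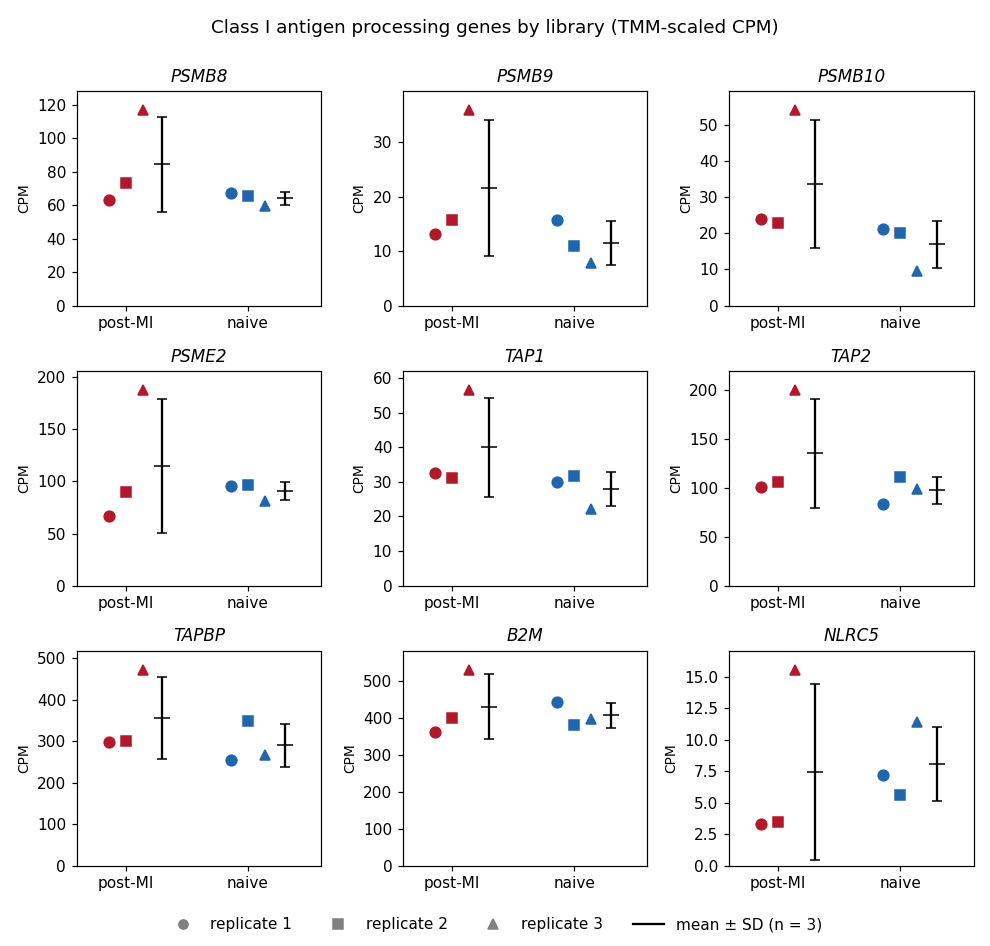
TMM-scaled CPM (linear axes from 0) of the 9 counted class I processing genes in each library, with post-MI plasma in red and naive plasma in blue; marker shapes give the replicate, and black bars the mean ± SD of 3 libraries. Post-MI replicate 3 is the highest point in all 9 panels, and NLRC5 in addition has naive replicate 3 above the other 4 libraries.

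PSMB10 and PSMB9, both inducible catalytic subunits, had the largest log2 fold changes of the 9 genes. PSMB8, which carries the chymotrypsin-like activity of the immunoproteasome, was at 63.1, 73.2 and 117 CPM in post-MI replicates 1, 2 and 3, against 67.1, 65.7 and 59.5 CPM in naive replicates 1, 2 and 3. Post-MI replicate 1 lay within the naive range, post-MI replicate 2 just above it and post-MI replicate 3 far above. The log2 fold change, post-MI over naive, was 0.39 ± 0.24 (SE, edgeR adjusted p = 0.621). PSMB9, the inducible replacement of PSMB6, was at 13.1, 15.7 and 35.8 CPM with post-MI plasma, against 15.8, 10.9 and 7.89 CPM with naive plasma. Post-MI replicates 1 and 2 lay inside the naive range. Its log2 fold change was 0.90 ± 0.43 (SE, edgeR adjusted p = 0.570).

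PSMB10, the inducible replacement of PSMB7, was at 24.1, 22.7 and 53.9 CPM with post-MI plasma, against 21.2, 20.1 and 9.54 CPM with naive plasma. It was the 1 member whose groups did not overlap, with post-MI above naive, which held for 8.32% of all genes tested; 0 members lay wholly below the naive libraries, against 7.82% of all genes. The gap between the groups was narrow, since post-MI replicate 2 and naive replicate 1 lay next to each other, and naive replicate 3 was far below the rest. PSMB10 had the largest log2 fold change among the members, 0.99 ± 0.43 (SE), and its edgeR adjusted p was 0.566 (unadjusted p = 0.0536). Without post-MI replicate 3 it was 0.47, and without naive replicate 3 it was 0.70.

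The activator pair gave 1 usable row. PSME2 encodes a subunit of the regulator ring that opens the proteasome core and is induced by interferon-gamma. It was at 66.5, 90.1 and 188 CPM with post-MI plasma, against 95.8, 96.7 and 81.2 CPM with naive plasma. Post-MI replicate 1 was the lowest of the 6 libraries and post-MI replicate 3 the highest, so the fold change of the groups, 0.33 ± 0.36 on the log2 scale (SE, edgeR adjusted p = 0.785), averaged libraries that lay below, within and above the naive range. PSME1, which encodes the partner subunit, was listed at 0 counts in all 6 libraries. A count of 0 allows up to 3 counts per library, or 0.161 to 0.205 CPM in the post-MI and 0.141 to 0.174 CPM in the naive libraries, by counting error alone. PSME2 had 1240 to 3250 counts in the same libraries, and the annotation behind the counts is not given in the sources used here, so the PSME1 row is reported as listed at 0 and no more.

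TAP1 and TAP2 form the transporter as a heterodimer. TAP1 was at 32.5, 31.0 and 56.5 CPM with post-MI plasma, against 29.9, 31.7 and 22.3 CPM with naive plasma. TAP2 was at 101, 106 and 200.1 CPM with post-MI plasma, against 83.4, 111 and 99.3 CPM with naive plasma. In both genes post-MI replicates 1 and 2 lay beside or within the naive values. The log2 fold changes were 0.52 ± 0.27 for TAP1 (edgeR adjusted p = 0.584) and 0.47 ± 0.28 for TAP2 (edgeR adjusted p = 0.622; SE each). RefSeq (assembly ARS-UI_Ramb_v3.0) places TAP2, PSMB8, TAP1 and PSMB9 next to one another, in this order among protein-coding genes. In post-MI replicate 3 these neighbours were 2.04-fold (TAP2), 1.82-fold (PSMB8), 2.02-fold (TAP1) and 3.1-fold (PSMB9) above the naive mean. PSMB10, which is not part of that cluster, was 3.18-fold above it.

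TAPBP and B2M, which act at the last steps of assembly, had smaller fold changes than the transporter genes. TAPBP encodes tapasin, which bridges the transporter and the class I molecule, and was at 297, 302 and 471 CPM with post-MI plasma, against 255, 348 and 266 CPM with naive plasma. Its log2 fold change was 0.30 ± 0.23 (SE, edgeR adjusted p = 0.689). B2M, the light chain shared by class I molecules, was at 363, 399.9 and 531 CPM with post-MI plasma, against 445, 381 and 398 CPM with naive plasma. Its range was the narrowest of the 9 genes, with a highest library 1.46-fold above the lowest, against 5.65-fold for PSMB10. The log2 fold change of B2M was 0.08 ± 0.18 (SE, edgeR adjusted p = 0.903).

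NLRC5, the nuclear regulator that drives class I genes in human and mouse cells, followed another pattern. It was at 3.27, 3.48 and 15.5 CPM with post-MI plasma, against 7.21, 5.62 and 11.4 CPM with naive plasma. Post-MI replicates 1 and 2 were the lowest of the 6 libraries, below every naive library, and naive replicate 3 ranked second behind post-MI replicate 3. These values rest on 51 to 269 counts, and the exact 95% Poisson interval of post-MI replicate 2 (2.59 to 4.58 CPM) lay apart from that of naive replicate 1 (6.08 to 8.48 CPM) and overlapped slightly with that of naive replicate 2 (4.55 to 6.85 CPM); intervals cover counting error alone. Over all libraries the log2 fold change was -0.12 ± 0.63 (SE, edgeR adjusted p = 0.962). Without post-MI replicate 3 it was -1.26 ± 0.36 (SE, edgeR adjusted p = 0.396, unadjusted p = 0.0133). In that edgeR fit 1 of the 9 genes and 9.74% of all genes tested had an unadjusted p under 0.05. Naive replicate 3, with the highest NLRC5 of the naive libraries, had the lowest PSMB8, PSMB9, PSMB10 and TAP1 of all 6 libraries. The log2 ratio of PSMB10 to NLRC5 was 2.84, 2.67 and 1.79 in the post-MI replicates 1, 2 and 3, against 1.54, 1.82 and -0.25 in the naive replicates.

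Over the 9 genes, 8 had a positive log2 fold change and 1 a negative one, with a median of 0.39. Over all genes tested the median was -0.01, with 6862 positive and 7464 negative values. At an unadjusted p under 0.05 edgeR gave 0 of the 9, and 8.68% of all genes tested. The DESeq2 Wald test also called 0 of the 9, where it called 1.01% of genes higher and 0.44% lower; at an unadjusted p under 0.05 it gave PSMB9 and PSMB10, 2 of the 9, and 8.54% of all genes. limma-voom called 0. Of the single libraries, leaving out post-MI replicate 3 moved the median most: it was 0.08, 6 fold changes were positive and 3 negative, and PSME2 (-0.22), B2M (-0.09) and NLRC5 had negative values. NLRC5 in post-MI replicates 1 and 2 averaged 0.419-fold of the naive mean. Without naive replicate 1, the other library that stood apart, the median was 0.38 and PSMB9 and PSMB10 gave 1.20 and 1.19.

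**Figure D2:**
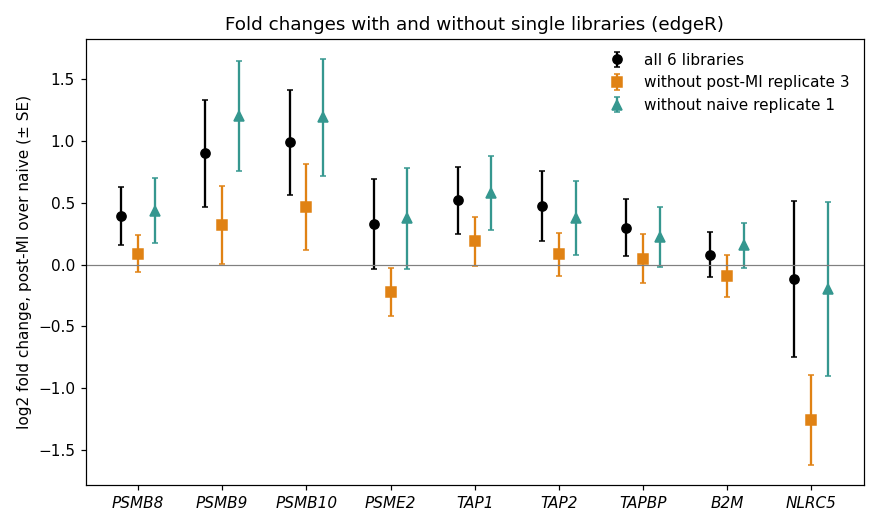
Log2 fold changes of the 9 genes, post-MI over naive, from edgeR with SE bars, for all 6 libraries (black), without post-MI replicate 3 (orange) and without naive replicate 1 (green). Values without post-MI replicate 3 lie nearer 0 in 7 genes and are more negative in NLRC5 (-1.26), while those without naive replicate 1 keep the sign of the black points.

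The exchange of proteasome subunits was read within each library, as the log2 ratio of each inducible subunit to the constitutive subunit it replaces; gene length cancels when a ratio is compared between libraries. For PSMB8 over PSMB5 the ratio was -0.35, -0.43 and 0.11 with post-MI plasma, against -1.09, -0.53 and -0.72 with naive plasma. All 3 post-MI libraries lay above all 3 naive libraries. The difference of means was 0.55 (exact two-sided permutation p = 0.1, the smallest that 3 against 3 allows, and 0.2 adjusted over the 3 pairs). Without post-MI replicate 3 it was 0.39 and without naive replicate 1, which had the highest PSMB5 (143 CPM), it was 0.40.

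For PSMB9 over PSMB6 the ratio was -3.06, -2.92 and -1.33 with post-MI plasma, against -3.00, -3.19 and -3.62 with naive plasma. The groups overlapped, as post-MI replicate 1 lay below naive replicate 1, and the difference was 0.83 (exact two-sided permutation p = 0.2, adjusted 0.2). For PSMB10 over PSMB7 the ratio was -1.20, -1.71 and -0.54 with post-MI plasma, against -1.95, -1.69 and -3.17 with naive plasma. The difference was 1.12 (exact two-sided permutation p = 0.2, adjusted 0.2), and 0.67 without naive replicate 3. Without post-MI replicate 3 the differences of these pairs were 0.28 and 0.81.

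**Figure D3:**
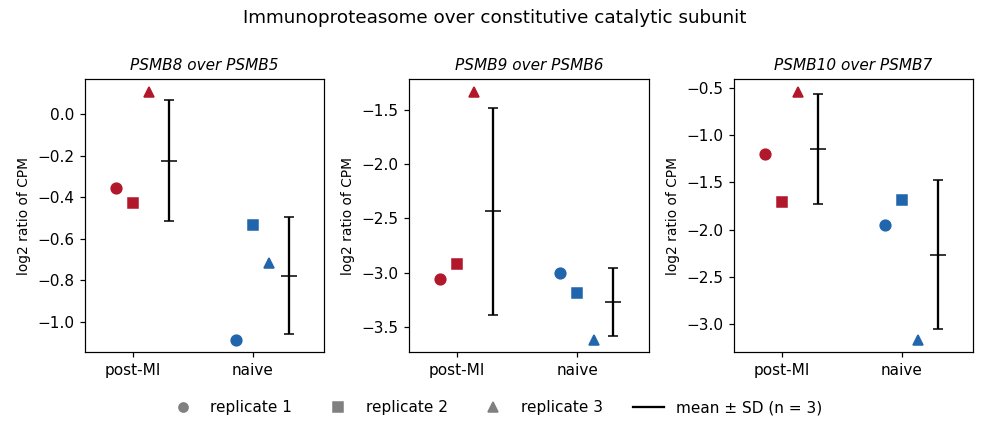
Log2 ratio of CPM of each inducible catalytic subunit to its constitutive counterpart in each library, with post-MI plasma in red and naive plasma in blue; shapes give the replicate and black bars the mean ± SD of 3 libraries. Post-MI replicate 3 has the highest ratio in all 3 panels, and the groups are separate in the PSMB8 panel alone.

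Of other proteasome genes, 2 of 11 other 20S core subunits, 1 of 18 subunits of the 19S particle and 1 of 8 other activators and assembly factors were highest in post-MI replicate 3, against 13.3% of all genes tested. The constitutive catalytic subunits PSMB5, PSMB6 and PSMB7 had log2 fold changes of -0.22 ± 0.21, -0.03 ± 0.17 and -0.16 ± 0.19 (SE), and 0 of the 3 had their highest level in that library. Of the 11 core subunits 10 had a negative log2 fold change (median -0.22), and 0 passed edgeR; PSMB3, a structural subunit of the core, gave -0.36 ± 0.20 (SE). All 18 genes of the 19S particle, which unfolds and feeds substrates, had negative log2 fold changes (median -0.27), and 0 passed edgeR. Over all 14326 genes tested, 7464 had a negative log2 fold change. Of the 19S genes 4 lay wholly below the naive libraries, against 7.82% of all genes tested. PSMD12 was at 45.0, 52.8 and 60.1 CPM with post-MI plasma, against 88.5, 67.2 and 72.9 CPM with naive plasma, and PSMC6, 1 of the ATPase subunits, gave -0.54 ± 0.18 (SE, edgeR adjusted p = 0.555). Of these 18 genes, 14 were highest in naive replicate 1, and without it their median was -0.15. The assembly factor POMP gave -0.34 ± 0.20 and the inhibitor PSMF1 0.33 ± 0.22 (SE). PSMF1 was the member of its list that was highest in post-MI replicate 3, by 0.71 on the log2 scale, and its fold change without that library was 0.08. In post-MI replicate 3 the 19S genes stood at a median of 0.04 above the other libraries, the other 20S genes at 0.07 and the 9 class I genes at 1.0 (log2).

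Peptide trimming and loading partners were read by role. The endoplasmic reticulum aminopeptidase ERAP2, which trims peptides to length, was at 26.2, 25.4 and 72.6 CPM with post-MI plasma, against 24.7, 19.3 and 14.4 CPM with naive plasma. The groups did not overlap, by a narrow margin, and post-MI replicate 3 was far above. Its log2 fold change was 1.09 ± 0.44 (SE, edgeR adjusted p = 0.566), and 0.41 without post-MI replicate 3. ERAP1, the related trimming enzyme, gave 0.44 ± 0.23 and LNPEP, an aminopeptidase of endosomes, 0.29 ± 0.17 (SE). The general chaperones of glycoprotein folding gave values nearer 0, with -0.21 ± 0.14 for CANX, 0.05 ± 0.15 for PDIA3 and 0.05 ± 0.23 for CALR (SE). Of the 10 genes 8 were highest in post-MI replicate 3, against 13.3% of all genes tested. Log2 fold changes were positive in 7, and edgeR called 0. ERAP2 was the 1 gene of the 10 with post-MI wholly above naive, which held for 8.32% of all genes tested. In 0 of the 10 post-MI lay wholly below naive, against 7.82% of all genes tested. Class I heavy chains were not analysed here; of their relatives FCGRT, the neonatal Fc receptor chain that also pairs with B2M, gave 0.51 ± 0.29, HFE 0.26 ± 0.15 and MR1 -0.20 ± 0.15 (SE).

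Among 12 tested regulators, 3 did not overlap between the groups, with post-MI above naive (IRF1, IRF8 and STAT2), which held for 8.32% of all genes tested, and 0 lay wholly below, against 7.82%. IRF1, an interferon-gamma-induced factor with sites in class I processing genes of human and mouse, was at 37.7, 27.5 and 54.5 CPM with post-MI plasma, against 17.0, 24.7 and 15.6 CPM with naive plasma. Its log2 fold change was 1.06 ± 0.29 (SE, edgeR adjusted p = 0.460), and 0.78 without post-MI replicate 3. IRF2, IRF8 and STAT2 gave 0.42 ± 0.18, 0.63 ± 0.28 and 0.43 ± 0.22 (SE), and STAT2 gave 0.21 without post-MI replicate 3. The STAT2 margin was narrow, with post-MI replicate 1 at 52.6 CPM and naive replicate 3 at 52.1 CPM. IRF8 had 37 to 86 counts per library. Fold changes of 9 of the 12 tested factors were positive and edgeR called 0, and CIITA, the class II counterpart of NLRC5, was listed at 0 in every library.

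Of 8 interferon ligands sought by symbol, 3 had a row, and the other 5 were not analysed here. IFNG and IFNK were listed at 0 and IFNE had 1 count, in post-MI replicate 3. Of 9 receptor, kinase and feedback genes 2 (IFNAR2 and TYK2) were highest in post-MI replicate 3, against 13.3% of all genes tested. The interferon-gamma receptor chain IFNGR1 was at 184, 183 and 112 CPM with post-MI plasma, against 114, 104 and 124 CPM with naive plasma, so post-MI replicate 3 was the lowest of its group. IFNAR2, of the type I receptor, gave a log2 fold change of 0.45 ± 0.20 and JAK2 -0.40 ± 0.21 (SE), and 0 of the 9 passed edgeR.

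In post-MI replicate 3 the type I interferon-stimulated genes stood further above the other libraries than the class I genes did. All 25 tested genes of that list were highest there, by a median of 3.52 on the log2 scale against 1.0 for the class I genes. MX2, an antiviral GTPase, was at 2.30, 2.19 and 328 CPM with post-MI plasma, against 1.75, 8.69 and 0.705 CPM with naive plasma. ISG15, a ubiquitin-like modifier, was at 2.73, 1.23 and 139.6 CPM with post-MI plasma, against 0.50, 6.60 and 0.987 CPM with naive plasma. Naive replicate 2 ranked second in both, whereas among the class I genes it ranked second in PSME2, TAP2 and TAPBP. Of 12 rows for genes that interferon-gamma can induce, 6 were tested: GBP5, ICAM1, WARS1, WARS and, also in other lists here, IRF1 and SOCS1. WARS1 and WARS are the new and old symbol of the same gene, so that gene is counted in both rows. All 6 rows stood higher in post-MI replicate 3 than the mean of the other libraries, by 0.30 to 1.57 on the log2 scale. Their median was 0.97, against 1.0 for the class I genes. With either the WARS1 or the WARS row left out, the middle value was 1.15 (ICAM1). In 3 of the 6 rows that library was the highest. Fold changes were positive in 3 rows and negative in 3 (WARS1, WARS and SOCS1), with 0 called by edgeR. ICAM1, an adhesion molecule for leukocytes, was at 192, 147 and 361 CPM with post-MI plasma, against 298, 137 and 97.5 CPM with naive plasma. Of the rows below the filter, IDO1, a tryptophan-degrading enzyme, had 7, 8 and 36 counts with post-MI plasma, against 0, 10 and 4 counts with naive plasma, and CXCL9, CXCL10, CXCL11, CIITA and CD74 had 0 to 8 counts per library. The GTPase GBP5 was at 26.9, 20.8 and 37.8 CPM with post-MI plasma, against 5.46, 12.1 and 8.69 CPM with naive plasma. For GBP5 the fold change on the log2 scale was 1.71 ± 0.34 (SE, adjusted p = 0.30 in edgeR) and 1.45 without post-MI replicate 3. Of 6 rows for class II presentation, HLA-DRA, HLA-DOA, HLA-DOB and CD74 had 0 to 2 counts per library. HLA-DMA, which helps to load class II molecules, had 6 to 17 counts with post-MI and 11 to 38 counts with naive plasma, and the lysosomal protease CTSS had 13 to 24 and 15 to 36 counts with post-MI and with naive plasma.

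**Figure D4:**
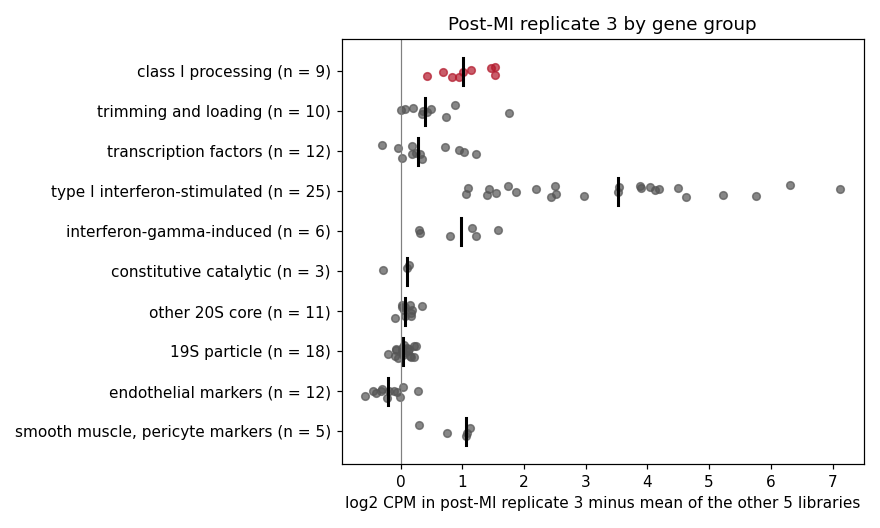
Log2 CPM in post-MI replicate 3 minus the mean of the other 5 libraries (1 point per gene, vertical jitter for display, bar at the median), for class I processing genes (red) and other gene groups (grey). Class I genes have a median of 1.0. Smooth muscle and pericyte markers have a median of 1.07, but low naive libraries widen that gap. ACTA2 was at 5330 CPM in post-MI replicate 3, 4878 CPM in post-MI replicate 1 and 643 CPM in naive replicate 1. MYH11 was at 72.3 CPM in post-MI replicate 3, 70.6 CPM in naive replicate 2 and 9.71 CPM in naive replicate 1. CSPG4 was highest in post-MI replicate 1. Interferon-gamma-induced genes have a median of 0.97, with the same gene plotted both as WARS1 and as WARS. Type I interferon-stimulated genes lie at 3.52, the constitutive, other 20S and 19S proteasome genes at 0.10, 0.07 and 0.04, and endothelial markers at -0.20.

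Genes with the most similar profile were sought among 13412 genes whose mean log2 CPM reached 1, by Euclidean distance over the 6 libraries between centred log2 CPM and the mean of the 9 class I genes. Among the nearest were TDRD7 (distance 0.201), DAXX (0.264), MAD2L2 (0.267), CGAS (0.289) and 3 genes with provisional names (LOC114118416, LOC114116931 and LOC114115798, 0.278 to 0.292). The class I genes themselves lay at 0.256 (PSMB8) to 1.59 (NLRC5) from their mean, with PSME2 at 0.336, TAP1 at 0.359 and PSMB10 at 1.05. TDRD7, a tudor domain protein, was at 22.2, 22.3 and 44.4 CPM with post-MI plasma, against 25, 24.5 and 22.7 CPM with naive plasma. The likeness is a description and rests mainly on post-MI replicate 3, where the mean of the class I genes stood 0.89 above its average over all libraries, against -0.32 to -0.08 in the other 5.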

How the data were processed

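Messenger RNA of VECs was sequenced in 3 post-MI and 3 naive plasma libraries; per the labels' protocols the kit was stranded and reads were paired ends of 150 bp. The submitters' processing notes list featureCounts 2.0.0, STAR 2.5.2b, DESeq2 1.26.0, MultiQC 1.5, SAMtools 1.9 and FastQC, with Oar_v3.1 as build. Which annotation and strand setting served the counting is not given in the sources used here, so overlapping or near-identical genes are uncertain. The authors deposited 1 table of raw counts per gene symbol for all libraries. Their deposited signal per sample was these counts over a library-wide factor (100% of counts above 0, tolerance 0.01%), and it served to check the match of columns to samples.

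In R 4.3.3, genes were filtered with filterByExpr of edgeR 4.0.16 (minimum count 10, minimum total 15), which left 14326, scaled by TMM, and tested with edgeR's quasi-likelihood F test, p-values being adjusted over all genes (Benjamini-Hochberg, threshold 0.05). SE was taken as |log2 fold change| divided by the root of F. Log2 CPM used a prior count of 2. Libraries of a group differed beyond sampling noise (chi-square over degrees of freedom 17 to 163). Alternatives were DESeq2 1.42.0, limma-voom (limma 3.58.1), other scaling and filters, a replicate block and left-out libraries. The steps were tested on simulated data.

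The class I genes and the lists were chosen with earlier results of these data known. The naming rule took the class I genes, PSMB5, PSMB6, PSMB7, IRF1, MX2, ISG15, up to 4 genes per list with the smallest p and the 8 nearest profiles; any other gene is named with its values already known. A gene that the rule also took is not reported here.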

Additional observations from a re-analysis of the deposited data

How the results depend on the processing

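With all libraries edgeR called 0 genes in either direction, and 0 of the 9 class I genes were called in any of the 13 alternative fits. DESeq2 called 152 genes with higher and 66 with lower levels after post-MI plasma. With naive replicate 1 and post-MI replicate 3 both left out, a choice made after seeing the data, edgeR called 3 genes higher, and the log2 fold changes of PSME2, TAP2, TAPBP and B2M turned to -0.17, -0.0057, -0.021 and -0.014. With single libraries left out, PSME2 ran from -0.22 to 0.61, B2M from -0.094 to 0.19 and NLRC5 from -1.26 to 0.24; the negative PSME2 and B2M values were without post-MI replicate 3, and the positive NLRC5 values were without post-MI replicate 1 (0.24), post-MI replicate 2 (0.22) or naive replicate 3 (0.21). The other 6 genes kept a positive sign in these fits; PSMB10 ran from 0.47 to 1.20 and PSMB9 from 0.32 to 1.20. The subunit ratios kept their sign in every alternative run: 0.23 to 0.68 for PSMB8, 0.28 to 1.15 for PSMB9 and 0.67 to 1.41 for PSMB10. The cause of these shifts was not tested. With a replicate block, 0 class I genes passed and PSMB10 gave 0.92. Deviations of same-numbered libraries correlated at 0.151, -0.109 and 0.0924 for numbers 1, 2 and 3, and not every library correlated best with its own number. With 3 libraries per group these correlations cannot decide whether the numbers pair the samples. Depth limits NLRC5 (51 counts at the lowest) most. PSME1 (0 counts) could not be tested, and why its row is at 0 is not known.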
